A study of Danio rerio with 68 samples.

Results

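Mitochondrial complex I is the NADH dehydrogenase that feeds electrons into the respiratory chain, and it is the enzyme that rotenone inhibits. Its nuclear-encoded subunits and assembly factors were taken as all rows whose symbol begins with ndufa, ndufb, ndufc, ndufs, ndufv or ndufaf, leaving out ndufa4 and its relatives. This gave 45 of the 32677 genes in the count table, of which 8 are core subunits of the matrix arm, 10 are other subunits of that arm, 21 are other subunits of the membrane arm and 6 are assembly factors. All but ndufs8b, a polymorphic pseudogene, are annotated as protein coding, and 3 rows (ndufa4, ndufa4l2 and NDUFA4L2 (2 of 2)) were left out by the rule. A further 3 rows have ndufa9b, NDUFAF7 and NDUFAF8 as current names but carry other symbols or none, and are not members. Male zebrafish aged 12 or 36 months were studied, and RNA was sequenced from 3 of their tissues, brain, liver and skin. Rotenone at 3.75 nM was added to the tanks, with DMSO for the controls, whose treatment is otherwise labelled as none, for 3 or 8 weeks. Only 36-month fish received rotenone. The 68 libraries comprise 24 from brain, 20 from liver and 24 from skin. In brain and skin, 12-month controls numbered 3 at each time, 36-month controls 3 at 3 weeks and 4 at 8 weeks, and rotenone fish 5 at 3 weeks and 6 at 8 weeks. In liver the same groups held 2 and 3, 2 and 3, and 4 and 6 libraries. The design text calls the libraries biological replicates and each carries a fish number. Which fish shared a tank is not stated, so p-values measure the spread between fish and not between tanks. Age and birth cohort cannot be told apart.

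Complex I has a matrix arm, in which the core subunits pass electrons from NADH through a flavin and a chain of iron-sulfur clusters, and a membrane arm that pumps protons. The core subunits of the membrane arm are encoded by the mitochondrial genome, while all the others are imported from the cytosol and joined by assembly factors that leave the finished enzyme. Rotenone blocks the transfer of electrons to ubiquinone, at the junction of both arms, where Ndufs7 lies.

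Total gene counts per library (M for mega) were 24.1 M to 54.9 M in brain, 28.7 M to 47.3 M in liver and 24.3 M to 34.4 M in skin. The 11 brain, 11 liver and 12 skin markers examined had reads in every library of their own tissue. The liver library of the 36-month control replicate 3 at 8 weeks stood apart: liver markers made up 4.41% of its counts, against 12.7% to 20.1% in the other liver libraries, and intestine markers 1.40%. In 36-month skin controls at 3 weeks, replicate 3 had 10.4% of its counts on skeletal muscle markers, against 0.446% to 4.32% in the other skin libraries. Brain rotenone replicates 3 and 4 at 3 weeks had more counts on short genes than the other brain libraries, with slopes of deviation on log2 gene length of -0.039 and -0.069. These 4 libraries and skin replicate 2 of the 12-month controls at 3 weeks were removed together as an alternative to each result. That skin library had 0.0616% of its counts on testis markers, against at most 0.0179% in other skin libraries. A fit within a tissue lost only the removed libraries of that tissue. Other libraries with off-tissue markers or a steep length slope were kept. The slope was 0.040 in brain replicate 2 of the 12-month controls at 3 weeks. It was -0.072 in skin replicate 2 of the 36-month controls and 0.065 in liver rotenone replicate 3, both at 3 weeks. Skin replicate 1 of the 12-month controls at 3 weeks had 1.43% on liver markers, against at most 0.0261% elsewhere in skin. Pancreas markers took 4.57% in liver rotenone replicate 6 at 8 weeks, against 0.00679% to 1.73% in other livers.

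Together the 45 genes took a median of 0.307% of all counts in brain (range 0.244% to 0.544%), 0.222% in skin (0.143% to 0.397%) and 0.156% in liver (0.113% to 0.207%). Per length, the median level of the 44 genes with reads in every library was 77.6 RPKM in brain, 60.3 RPKM in skin and 41.7 RPKM in liver, which are reads scaled by gene length and library depth. The order of the genes was alike in the tissues: across the 44 genes, Spearman's rho of the mean RPKM was 0.84 between brain and liver, 0.91 between brain and skin and 0.94 between liver and skin, as a description of genes and not of independent samples. Core subunits had a median mean level of 94.1 RPKM in brain, 49.9 RPKM in liver and 79.9 RPKM in skin. Assembly factors were far lower, at medians of 11.3, 5.04 and 9.35 RPKM in the same tissues.

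In brain, the highest level was that of ndufs7, the core subunit with the last iron-sulfur cluster before ubiquinone, at 213 ± 35.1 RPKM (SD, n = 24). It was followed by the membrane-arm subunit ndufb9 at 181 ± 37.4, ndufa5 of the matrix arm at 129 ± 32.8 and NDUFC2 of the membrane arm at 124 ± 33.2 RPKM. The SDs of the last pair overlap widely, and their order within single libraries was not tested. In skin, ndufs7 was again first at 132 ± 39.2 RPKM (SD, n = 24), with ndufb9 at 110 ± 29.5, ndufv1, which binds NADH, at 100.3 ± 22.6 and ndufb8 at 96.2 ± 25.01 RPKM. Each of these 4 means lies within an SD of its neighbour, and the order of neighbours within single libraries was not tested. Liver was led by NDUFC2 at 172.01 ± 50.9 RPKM (SD, n = 20), then ndufb9 at 87.1 ± 11.3, ndufs5 at 72.1 ± 13.4 and ndufs7 at 66.6 ± 13.4 RPKM. The length used for NDUFC2, 195 bp, is the shortest of the members (median 842 bp), and its rank by RPKM depends on it. At the other end stood ndufs8b and 3 assembly factors in every tissue. In brain, ndufaf2, a late-stage chaperone, measured 7.04 ± 1.18, ndufaf4 10.9 ± 3.57 and ndufaf6 11.2 ± 2.30 RPKM. The same 3 measured 2.20 ± 0.641, 2.76 ± 1.63 and 3.05 ± 1.66 RPKM in liver and 3.38 ± 1.13, 7.04 ± 1.803 and 4.59 ± 1.503 RPKM in skin.

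**Figure D1:**
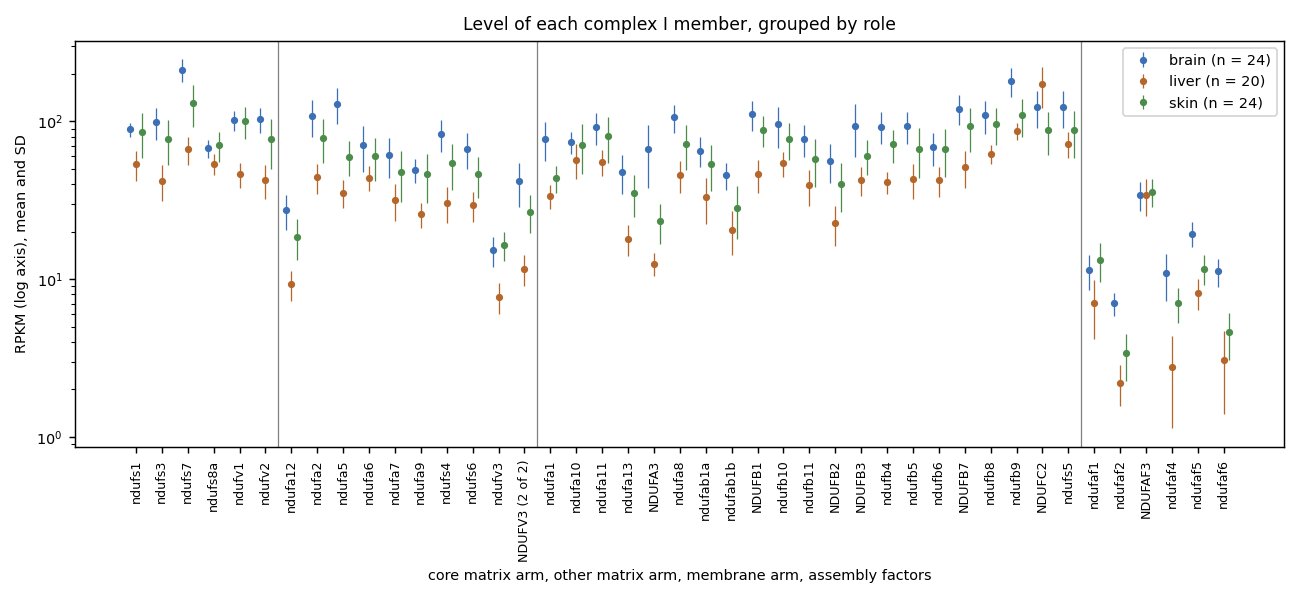
Mean RPKM of 43 of the members with reads in every library (log axis), with the SD over 24 brain, 20 liver and 24 skin libraries, grouped by role from core subunits to assembly factors. Apart from NDUFAF3, the assembly factors at the right are among the lowest, and NDUFC2 in liver (172.01 RPKM) is the point that stands above the other liver values.

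Several subunits occur as more than 1 row, and how the authors assigned reads shared by copies is not given in the sources used here. The copies ndufab1a and ndufab1b both encode the mitochondrial acyl carrier protein. ndufab1a was the higher in all 68 libraries, by 1.42-fold in brain, 1.61-fold in liver and 1.91-fold in skin as ratios of RPKM. This order depends on the lengths used, 918 bp for ndufab1a and 1537 bp for ndufab1b. By normalised CPM, which are not scaled by length, ndufab1b was the higher in most brain libraries. Differences of the ratio between tissues do not depend on the lengths. On the log2 scale the ratio was 0.42 ± 0.16 lower in brain than in skin of the same fish (SD, n = 24 fish, lower in all 24; two-sided sign-flip permutation test with 100000 draws, adjusted p = 2e-05 over 6 tests). It was lower in brain than in liver by a mean log2 difference of -0.17 (n = 20 fish, adjusted p = 0.00756, permutation test). The liver ratio differed from that of skin by -0.23 (n = 20 fish, adjusted p = 0.00078, permutation test). Another pair among the members, ndufv3 and NDUFV3 (2 of 2), belongs by its deposited symbols to a small accessory subunit of the matrix arm. By identifier, the current name ndufv3 belongs to the row NDUFV3 (2 of 2), and no current name was found for the row ndufv3. NDUFV3 (2 of 2) exceeded ndufv3 by 2.69-fold in brain, 1.49-fold in liver and 1.59-fold in skin as ratios of RPKM. Here too the order depends on the lengths, 463 bp for NDUFV3 (2 of 2) and 1762 bp for ndufv3. By normalised CPM, ndufv3 was the higher in every liver and skin library and in most brain libraries. Its log2 ratio was higher in brain than in liver by 0.88 ± 0.30 (SD, higher in 20 of 20 fish) and higher than in skin by 0.75 ± 0.22 (SD, 24 of 24 fish), each with an adjusted p of 2e-05 by permutation test. The unadjusted value behind it, 1e-05, is the smallest that the draws can give. Between liver and skin the difference was -0.14 (n = 20 fish, adjusted p = 0.0158, permutation test). The copy ndufs8b had 0 to 31 counts per library in brain, 0 to 6 in liver and 0 to 37 in skin, and 0 counts in 4, 12 and 8 libraries of these tissues. It was too rare for its fold changes to be read and is counted as a member without further values.

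Which tissue has more complex I mRNA depends on the scaling. By share of counts or RPKM, brain was highest and liver lowest. With TMM factors, which set the bulk of genes equal between tissues, the median difference was -0.45 on the log2 scale for brain minus liver, 0.05 for brain minus skin and 0.57 for liver minus skin. The medians over all 25628 genes tested were 0.10, -0.08 and -0.25. In that fit, which had no term for fish, 3 of the 45 members were higher in brain than in liver and 34 lower. Of all genes, 43.2% were higher and 39% lower. Between brain and skin 10 members were higher in brain (39.5% of all genes) and 11 lower (43.5%). Between liver and skin 40 were higher in liver (31.6%) and 1 lower (43.5%). Because the direction for the whole group turns with the scaling, single genes were also set against the median of the 44 members inside each library.

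On that internal log2 scale, on which 0 is the members' median, NDUFC2 had 2.09 ± 0.51 in liver (SD, n = 20), 0.65 ± 0.12 in brain and 0.53 ± 0.15 in skin (n = 24 each). Every liver library was above the highest brain and skin libraries, at 0.91 and 0.84. NDUFA3 of the membrane arm showed the reverse, with -0.27 ± 0.20 in brain, -1.65 ± 0.23 in liver and -1.38 ± 0.14 in skin. Its lowest brain library, at -0.63, was above every liver and skin library. ndufa5, an accessory subunit next to the ubiquinone site, measured 0.72 ± 0.10 in brain, -0.16 ± 0.17 in liver and -0.01 ± 0.12 in skin, again with no overlap between brain and the others. The assembly factor NDUFAF3 went from -1.19 ± 0.19 in brain to -0.73 ± 0.35 in skin and -0.23 ± 0.42 in liver, with overlapping ranges.

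In the TMM fit the 5 members furthest below 0 for brain minus liver were NDUFC2 at -1.98 ± 0.13 (SE), NDUFAF3 at -1.67, ndufs8a at -1.28, ndufa10 at -1.26 and ndufaf1 at -0.95. Those furthest above 0 were, besides ndufs8b, NDUFA3 at 0.81 ± 0.12 (SE), ndufaf4 at 0.31, ndufaf6 at 0.26 and ndufa5 at 0.25. For brain minus skin the upper end held NDUFA3 at 1.11, ndufaf6 at 0.89, ndufaf2 at 0.76, ndufa5 at 0.72 and ndufa1 at 0.43. The lower end held ndufaf1 at -0.62, ndufv3 at -0.52, NDUFAF3 at -0.50 and ndufs8a at -0.45. For liver minus skin the upper end was NDUFC2 at 2.08, NDUFAF3 at 1.16, ndufs5 at 0.97, ndufa10 at 0.94 and ndufb9 at 0.87. Apart from ndufs8b, the lower end was ndufaf4 at -0.14, NDUFV3 (2 of 2) at 0.02, ndufv1 at 0.09 and ndufv3 at 0.15.

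Within a tissue, most members shifted to the same side in some libraries, most often in skin. For each library the deviation of every member from its tissue mean was taken on the log2 scale of normalised CPM (counts scaled by library depth with TMM factors), and the median over members describes the library. In brain this median ran from -0.43 to 1.2, in liver from -0.43 to 0.48 and in skin from -0.72 to 0.94. More than 40 members lay above their tissue mean in 3 brain, 3 liver and 7 skin libraries, and fewer than 5 did so in 7, 3 and 10 libraries. The remaining libraries, most of those of brain and liver, lay between these limits. No such count is given for other genes. The pooled SD between fish of a group was 0.31 in brain, 0.26 in liver and 0.37 in skin. The median of the nuclear subunits of complexes II to V, the rest of the respiratory chain and the ATP synthase, differed from that of the complex I members by at most 0.16 in a brain library, 0.35 in liver and 0.15 in skin. The 7 mitochondrially encoded complex I subunits differed by up to 0.73, 0.89 and 0.45. In bulk tissue, fewer cells of a type and less RNA per cell cannot be told apart.

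**Figure D2:**
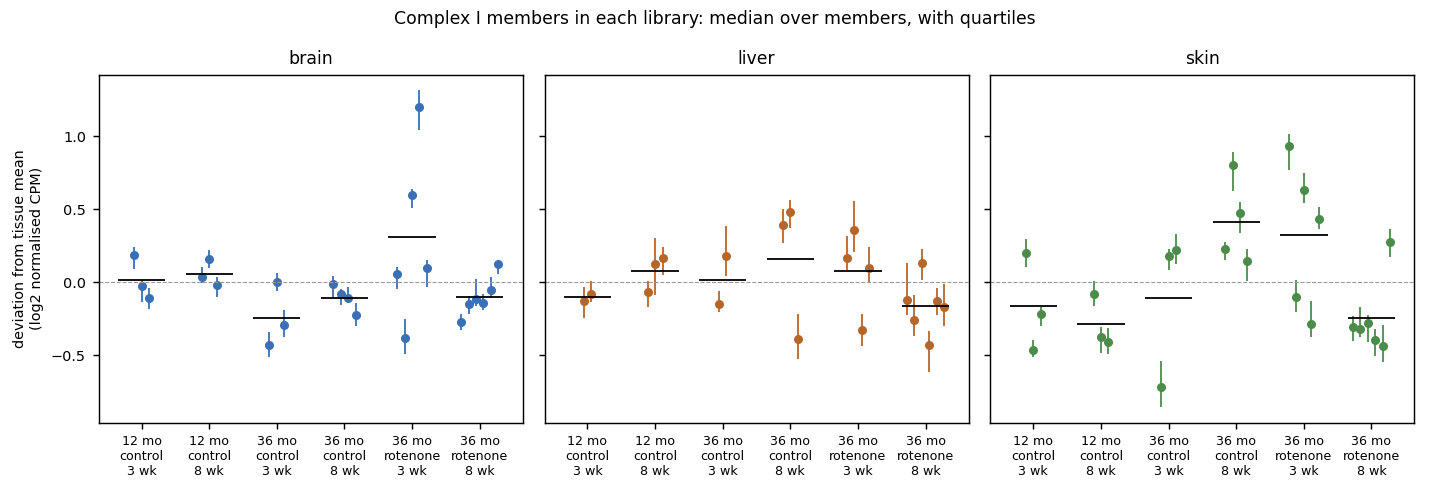
Median deviation of the complex I members from their tissue mean (log2 normalised CPM) in each library, with quartiles over members as vertical lines and group means as horizontal bars, for 24 brain, 20 liver and 24 skin libraries. In brain, rotenone replicate 4 at 3 weeks stands at 1.2, and in skin 5 of 6 rotenone libraries at 8 weeks lie between -0.44 and -0.28.

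After 8 weeks of rotenone, skin was the tissue in which the members were lowest against 36-month controls. All 45 had fold changes below 0, with a median of -0.68 on the log2 scale and the middle of the list between -0.73 and -0.53. Of these, 4 passed the test across all genes and were lower, where 2.33% of all genes were called lower (edgeR quasi-likelihood F test, Benjamini-Hochberg over 22682 genes). At an unadjusted p under 0.05, 37 members were lower, against 11.1% of all genes. By role, 3 of 21 membrane-arm subunits and 1 of 6 assembly factors were called, and none of the 8 core or 10 other matrix-arm subunits.

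The assembly factor ndufaf6 (ENSDARG00000053652), which in human cells is needed for complex I assembly, had 6.68, 7.49, 5.26 and 5.21 normalised CPM in the 4 control skins. The 6 rotenone skins ran from 2.61 to 4.37, with a median of 3.51. Every rotenone library was below every control. ndufaf6 fell by 0.84 ± 0.22 (SE, adjusted p = 0.0314). NDUFB2 (ENSDARG00000045490), a small membrane-arm subunit, had 52.1, 83.9, 63.4 and 50.1 normalised CPM in controls and 24.2 to 49.3, median 32.4, with rotenone. The groups again did not overlap, though rotenone replicate 6, the highest, came close to the lowest control. NDUFB2 fell by 0.90 ± 0.25 (SE, adjusted p = 0.0397).

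NDUFA3 (ENSDARG00000041400) had 29.7, 45.8, 35.02 and 31.9 normalised CPM in controls and 17.6 to 29.4, median 20.6, with rotenone. Its highest rotenone library, replicate 6, was just under the lowest control. NDUFA3 fell by 0.74 ± 0.21 (SE, adjusted p = 0.0432). NDUFB3 (ENSDARG00000075709), also of the membrane arm, had 49.3, 52.8, 44.3 and 60.1 in controls and 23.6 to 39.4, median 34.7, with rotenone. Here the gap between the groups was wider. NDUFB3 fell by 0.67 ± 0.19 (SE, adjusted p = 0.0486).

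None of the 7 core subunits passed the test in skin. ndufs7 was nearest, at -0.69 ± 0.23 (SE, adjusted p = 0.0768), with 99.1, 147, 122 and 89.9 normalised CPM in controls and 59.3 to 99.2, median 67.1, with rotenone. Only replicate 6 of the rotenone skins reached into the control range. Further values were those of ndufv2, with an iron-sulfur cluster of the NADH-oxidising module, at -0.73 ± 0.26 (SE), ndufs3 at -0.68 ± 0.27 and ndufs1, which carries several iron-sulfur clusters, at -0.64 ± 0.26. ndufs8a had -0.35 ± 0.19 (SE) and ndufv1 -0.29 ± 0.22.

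**Figure D3:**
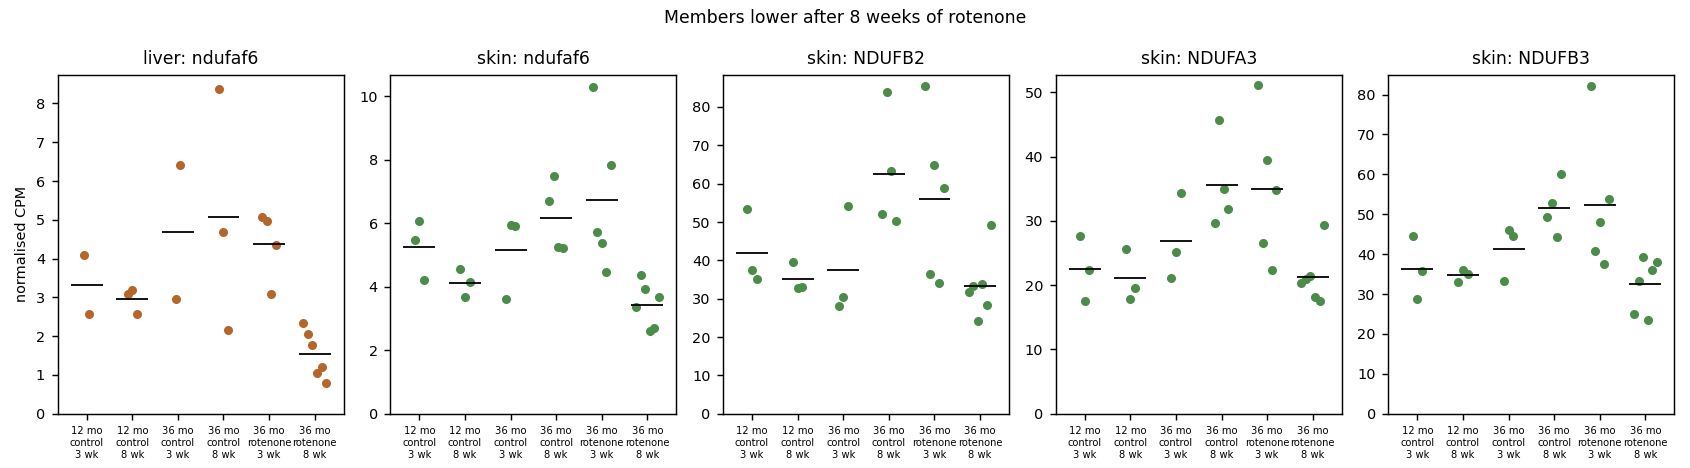
Normalised CPM per library (axes start at 0) of the members called lower after 8 weeks of rotenone, in 6 groups of 2 to 6 libraries, with group means as bars. In skin the 4 genes are low in rotenone fish at 8 weeks (right) and high in 36-month controls at 8 weeks, while 12-month controls sit between or near the rotenone values.

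Several measurements move with the skin result. The 36-month controls at 8 weeks, against which rotenone is compared, had the highest median of the 4 control groups, 0.35 (0.15 to 0.80), whereas rotenone fish at 8 weeks had -0.31 (-0.44 to 0.28). The 12-month controls had -0.38 at 8 weeks and -0.22 at 3 weeks. Skeletal muscle markers took 1.09% to 3.11% of counts in those controls and 0.446% to 1.59% in the rotenone skins. Of 21 muscle markers tested 20 were below 0, with a median of -1.63 and none called, and none of the 22 rows was at 0 counts throughout skin. The part of muscle in the result was not tested. The slope of a library's log2 deviations on log2 gene length was -0.0528 to 0.0239 in those controls, median -0.0341, and -0.0286 to 0.0622 in the rotenone skins, median 0.0151, where replicate 6 alone was below 0. With that trend removed from every library the median over members was -0.65 and 2 members were called (4.84% of all genes). Shares of all genes in this paragraph are for either direction, in which the fit reported first called 1200 of 22682 genes. After 3 weeks of rotenone the muscle markers had a median of -1.23 while the complex I members had 0.44. In that comparison control replicate 3 had 10.4% of its counts on muscle markers. Control replicates 1 and 2 had 1.89% and 0.734%, and the rotenone skins 1.06% to 4.32%. The count of 4 depended on single fish: it was 0 without control replicate 1 or 2 or without rotenone replicate 1, 4 or 5, 1 without rotenone replicate 2 or 3, 2 without control replicate 3 or 4, and 23 without rotenone replicate 6 (6.00% of all genes). For the counts of 0, 1 and 2 the share of all genes is not given here. DESeq2 called 16 members (10.4% of all genes), and voom with quality weights 34 (20% of all genes). The direction held in each of these fits, with the members' median between -0.82 and -0.52 when single libraries were left out.

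In liver, 42 of 44 members were below 0 after 8 weeks of rotenone, with a median of -0.34. ndufaf6 alone was called, against 5.19% of all genes called lower, and 16 members were lower at an unadjusted p under 0.05, against 14.1%. The share of members called was thus not above that of all genes. ndufaf6 had 8.37, 4.68 and 2.15 normalised CPM in the 3 controls and 0.782 to 2.34, median 1.49, in the 6 rotenone livers. The third control, the library rich in intestine markers, lay inside the rotenone range, and the 12-month controls at 8 weeks had 3.08, 3.19 and 2.57. ndufaf6 fell by 1.72 ± 0.38 (SE, adjusted p = 0.0143). It was not called when these groups were fitted alone or when control replicate 1 was left out, where the fold change was -1.19. The length slope was -0.0627 to -0.0082 in the controls and -0.0044 to 0.0420 with rotenone, with no overlap. With the length trend removed ndufaf6 had -1.60 and was still called, and the median over members was -0.28.

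The next liver members by p did not pass. NDUFB7 of the membrane arm had -0.70 ± 0.22 (SE, adjusted p = 0.0657), ndufs4, an accessory subunit of the matrix arm whose loss in mice gives an encephalopathy, -0.54 ± 0.19 (adjusted p = 0.0988) and NDUFB2 -0.70 ± 0.25 (adjusted p = 0.102). NDUFB7 had 53.1, 54.3 and 26.4 normalised CPM in controls and 23.1 to 32.4, median 26.8, with rotenone, so that again only the third control overlapped. Among core subunits ndufv2 had -0.53 ± 0.20 (SE, adjusted p = 0.121), ndufs3 -0.43, ndufs7 -0.36, ndufs1 -0.25, ndufs8a -0.20 and ndufv1 -0.06. Without the control rich in intestine markers the median was -0.56, all 44 were below 0 and 10 were called lower, where 4.71% of all genes were called in either direction: ndufaf6, NDUFB7, ndufs4, NDUFB2, ndufa12, ndufa2, ndufa7, ndufaf2, ndufb6 and ndufv2. Without control replicate 1 none was called, and voom with quality weights called 30 (17.6% of all genes in either direction). The fit reported first called 1486 of 20190 genes in either direction.

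In brain after 8 weeks of rotenone, no shift of the members from the controls was resolved. Of 45 members 22 were above 0, the quartiles of the fold changes were -0.03 and 0.06, and none was called, against 0.0304% of all genes (1 member, ndufs8b, had an unadjusted p under 0.05, and DESeq2 and voom also called none). Leaving ndufs8b aside, the extremes were ndufaf2 at -0.21 ± 0.15 (SE) and NDUFV3 (2 of 2) at 0.26 ± 0.28, with ndufb5 at -0.19 and ndufa1 at 0.19. The 7 core subunits lay between -0.03 (ndufv2) and 0.03 (ndufs3). ndufv1, for example, had 246, 233, 258 and 227 normalised CPM in the controls and 227 to 265, median 236, with rotenone.

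**Figure D4:**
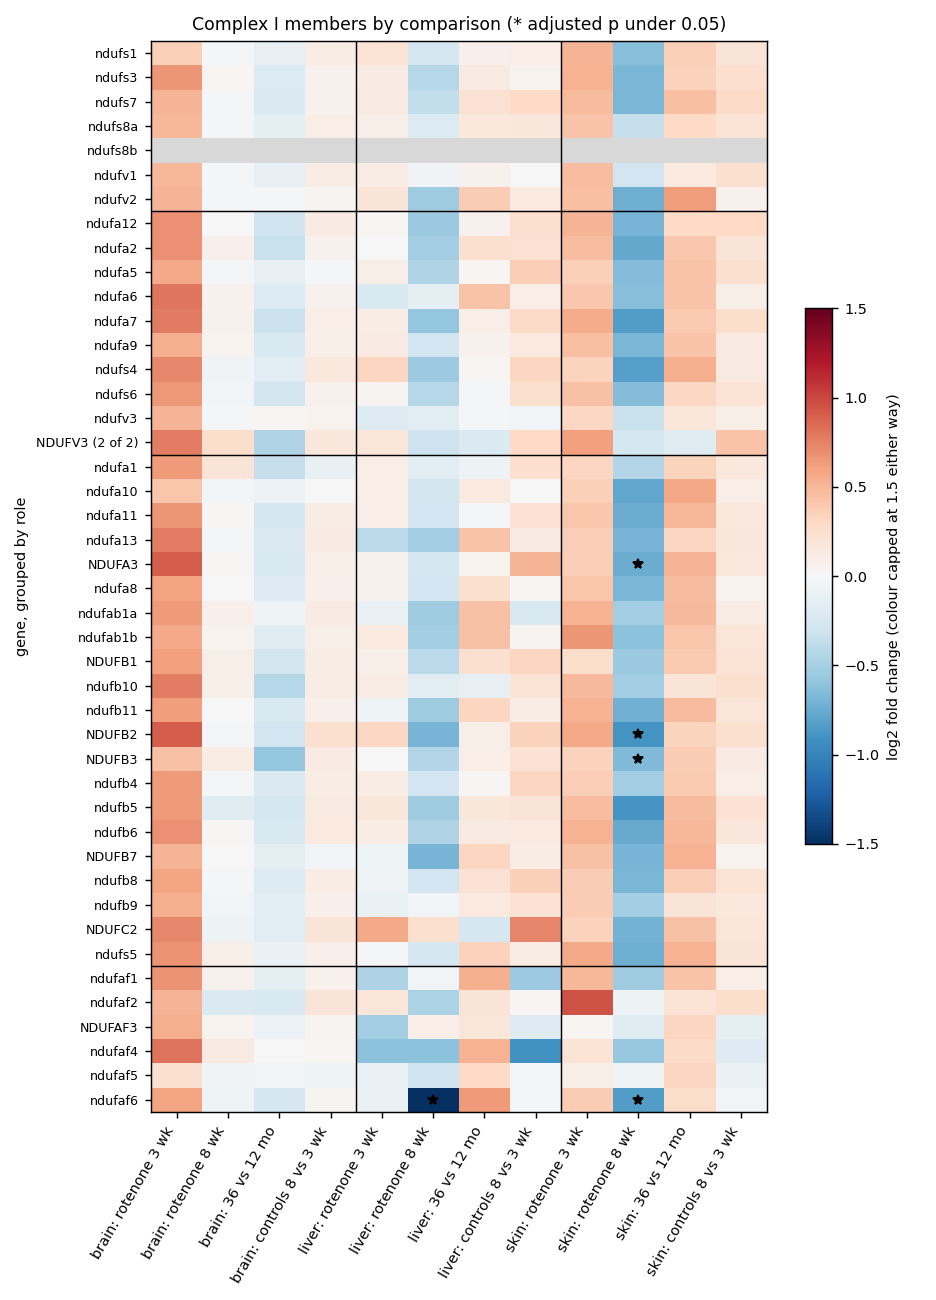
Log2 fold change of 44 members (rows, grouped by role) in 4 comparisons in each of 3 tissues (columns), with stars for an adjusted p under 0.05. ndufs8b is left grey for its low counts. The column of skin after 8 weeks of rotenone has a median of -0.68 and 4 stars, and that of brain after 3 weeks a median of 0.63 and no star.

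After 3 weeks of rotenone the brain libraries were spread widely, with 2 rotenone libraries far above the others. All 45 members were above 0 with a median of 0.63, none was called, and no gene of the genome was (0%). At an unadjusted p under 0.05, 42 were higher, against 9.16% of all genes, while DESeq2 and voom called none. By smallest p the members were ndufv1 at 0.50 ± 0.14 (SE), NDUFB2 at 0.91 ± 0.27, ndufs8a at 0.49 ± 0.16 and ndufaf6 at 0.59 ± 0.19, all with an adjusted p of 0.359. Among other core subunits, ndufs3 was at 0.66, ndufv2 at 0.52, ndufs7 at 0.51 and ndufs1 at 0.36.

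The per-library values show where these fold changes arose. NDUFB2 had 39.4, 41.6 and 52.8 normalised CPM in the 3 control brains and 62.1, 44.6, 92.9, 155 and 64.1 in the 5 rotenone brains. Replicate 4 stood at more than double any control, replicate 3 next, and replicate 2 was within the control range. NDUFA3 had 61.6, 75.4 and 57.6 in controls and 79.4, 65.0, 109 and 280.3 in rotenone replicates 1 to 4, with 72.9 in replicate 5. The median deviation over members was 0.60 and 1.2 in replicates 3 and 4 and -0.38 to 0.10 in the other 3. In the controls it was -0.43, -0.0008 and -0.30, the first being the lowest of all brain libraries. Replicates 3 and 4 had the highest medians in brain, so a smaller fold change without them was fixed in advance. Without replicates 3 and 4 the median fold change was 0.14, with 44 members above 0 and 2 at an unadjusted p under 0.05. With a trend on gene length removed from every library it was 0.61. In the fish of brain replicate 4, skin and liver had medians of -0.29 and -0.32, and in that of replicate 3 they had 0.63 and 0.36.

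**Figure D5:**
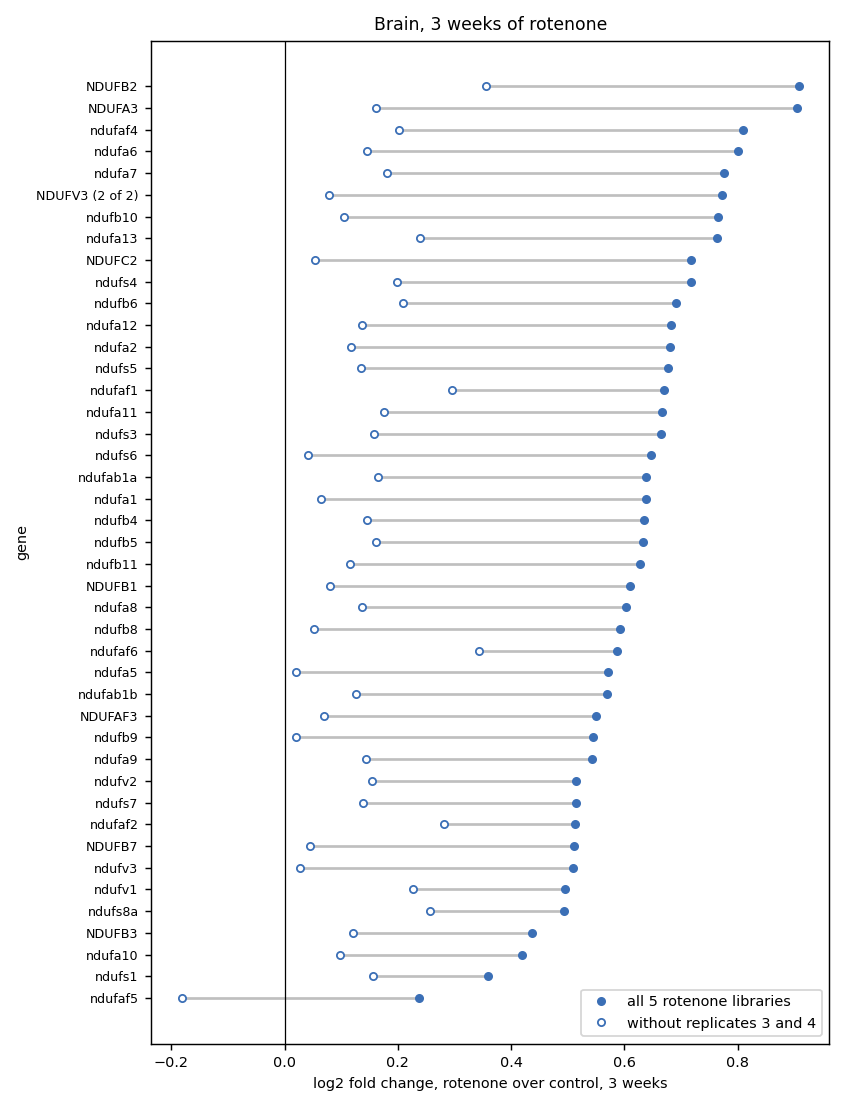
Log2 fold change of each member in brain after 3 weeks of rotenone, with all 5 rotenone libraries (filled) and without replicates 3 and 4 (open), for 43 members sorted by the first value. The filled points lie around 0.63 and the open points around 0.14.

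In skin, 44 of 45 members were above 0 after 3 weeks of rotenone, with a median of 0.44. None was called, as no gene was (0%), and 3 were higher at an unadjusted p under 0.05, against 4.68% of all genes. ndufaf2 had 4.65, 5.81 and 4.37 normalised CPM in controls and 12.8, 11.04, 6.35, 7.29 and 10.4 with rotenone. The groups did not overlap, and the fold change was 0.95 ± 0.25 (SE, adjusted p = 0.251), while DESeq2 called this gene (0.423% of all genes). ndufaf1, NDUFV3 (2 of 2) and ndufab1b followed at 0.50, 0.62 and 0.66. Core subunits were close together, with ndufs3 at 0.52, ndufs1 at 0.50, ndufs7 at 0.48, ndufv1 at 0.47, ndufv2 at 0.45 and ndufs8a at 0.43. The per-library medians in skin rotenone fish were scattered, at 0.94, -0.10, 0.63, -0.29 and 0.43. Left-out single fish gave medians of the fold changes from 0.20, without control replicate 1, to 0.60, and 0.29 without rotenone replicate 1.

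In liver after 3 weeks, 28 of 44 members were above 0, with a median of 0.09, and none was called (0% of all genes). No member had an unadjusted p under 0.05, and DESeq2 and voom called none. ndufaf4 had -0.61 ± 0.42 (SE), NDUFC2 0.57 ± 0.40, ndufa13 -0.41 ± 0.29 and ndufs4 0.32 ± 0.24, each with an adjusted p of 1. With 2 control livers, ndufaf4 turned to 0.45 when control replicate 2, at 6.17 normalised CPM against 1.94 in the other, was left out. Core subunits lay between 0.09 (ndufs8a) and 0.20 (ndufs1).

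The rotenone effect at 8 weeks minus that at 3 weeks was tested as a term of its own. In skin all 45 members had a difference below 0, with a median of -1.07. None was called (0% of all genes) while 42 had an unadjusted p under 0.05, against 5.29% of all genes, and DESeq2 called 1 (0.829% of all genes). The first by p were NDUFB2 at -1.47 ± 0.39 (SE, adjusted p = 0.198), ndufaf1 at -1.03 ± 0.29 and ndufaf6 at -1.23 ± 0.34. In brain 44 of 45 were below 0 with a median of -0.60, none was called (0%) and 16 had an unadjusted p under 0.05, against 5.17%. Without brain replicates 3 and 4, the highest of the brain libraries, that median was -0.12. In liver 39 of 44 were below 0 with a median of -0.42, and none was called, against 0.0693% of all genes. Without the control rich in intestine markers the liver median was -0.67.

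Among rotenone fish alone, 8 against 3 weeks gave more calls, all of them lower. These groups differ in sampling time, length of exposure and any batch of sampling, which cannot be told apart. In skin 13 of 45 members fell, against 8.12% of all genes called lower, and the median was -0.63. They included 4 of the 6 assembly factors: ndufaf4, which takes part in building the ubiquinone-binding module, fell by 0.84 ± 0.16 (SE, adjusted p = 0.00291). ndufaf1, which acts in membrane-arm assembly, fell by 0.81 ± 0.18 (adjusted p = 0.0054), ndufaf6 by 0.97 ± 0.21 (adjusted p = 0.00552) and ndufaf2 by 0.73 ± 0.20 (adjusted p = 0.0212). ndufaf4 had 8.87, 5.43, 8.74, 6.00 and 7.70 normalised CPM at 3 weeks and 3.19 to 5.30, median 4.03, at 8 weeks. The groups did not overlap. Skeletal muscle markers took 1.06% to 4.32% of counts at 3 weeks, median 1.53%, and 0.446% to 1.59% at 8 weeks, median 0.715%, and their part was not tested. The length slope had a median of -0.0342 at 3 weeks and 0.0151 at 8 weeks, and with that trend removed 9 members were called (12.5% of all genes) with a median of -0.61. The other 9 were ndufs4 of the matrix arm and 8 membrane-arm subunits, with NDUFB7, NDUFB3, NDUFA3, ndufab1a and NDUFB2 first by p, at -0.79, -0.69, -0.71, -0.74 and -0.74. Left-out single fish gave 3 to 29 calls, with 3 without rotenone replicate 1 at 3 weeks (9.75% of all genes), 6 without replicate 3 and 7 without replicate 5 at that time or when any of replicates 1 to 5 at 8 weeks was left out, and with 29 without replicate 4 at 3 weeks (14.3%) and 28 without replicate 6 at 8 weeks (14.1%). For the counts of 6 and 7 the share of all genes is not given here.

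In brain the same comparison called 5 members lower, against 6.53% of all genes, with a median of -0.52. ndufaf6 fell by 0.68 ± 0.15 (SE, adjusted p = 0.014), ndufv1 by 0.49 ± 0.11 (adjusted p = 0.0165), ndufaf2 by 0.55, NDUFA3 by 0.91 and ndufa5 by 0.63. Without brain replicates 3 and 4 at 3 weeks, the highest of the brain libraries, no member was called and the median was 0.01. Leaving out single fish gave 1 call (3-week replicate 3), 2 (replicate 4), 9 (replicate 1), 15 (replicate 5) and 40 (replicate 2), and 3 when any of 8-week replicates 1 to 5 was left out, while the share of all genes called ran from 2.91% without 3-week replicate 3 to 22.04% without replicate 2. In liver 1 of 44 members was called: ndufaf6 fell by 1.502 ± 0.36 (SE, adjusted p = 0.0156), against 6.14% of all genes called lower. It had 5.07, 4.96, 3.08 and 4.36 normalised CPM at 3 weeks and 0.782 to 2.34 at 8 weeks, with no overlap. The liver count was 0 without rotenone replicate 2 at 3 weeks, 6 without replicate 3 (11.3% of all genes), and 2 without replicate 4 (6.55%) or without 8-week replicate 3 (7.90%).

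Age was compared in controls, as the mean of the differences between 36 and 12 months at both sampling times. These contrasts share the 36-month controls with the rotenone contrasts. In skin 44 of 45 members were above 0 with a median of 0.39. None was called, against 2.41% of all genes, and 18 had an unadjusted p under 0.05 and were higher, against 10.5%. DESeq2 and voom called none. At 8 weeks all 45 were above 0 with a median of 0.69, where 8 weeks of rotenone gave -0.68 against the same controls. At 3 weeks 30 of 45 were above 0 with a median of 0.12.

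NDUFB7 had 67.2, 48.6 and 50.2 normalised CPM in 12-month skin at 3 weeks and 51.7, 44.7 and 44.5 at 8 weeks. At 36 months it had 51.7, 70.7 and 72.8 at 3 weeks and 75.2, 102, 76.9 and 76.6 at 8 weeks. The 8-week groups were separate and those at 3 weeks overlapped, for a fold change of 0.53 ± 0.19 (SE, adjusted p = 0.114). NDUFA3 had 0.51 ± 0.19, ndufv2 0.63 ± 0.23 and ndufaf1 0.42 ± 0.16. Further core subunits had 0.45 (ndufs7), 0.35 (ndufs1), 0.34 (ndufs3), 0.30 (ndufs8a) and 0.15 (ndufv1). Skeletal muscle markers were above 0 in 21 of 21 tested, with a median of 1.08, and their part was not tested. Without 36-month control replicate 1 at 3 weeks, 4 members were called higher (6.91% of all genes). Without the skin libraries that stood apart the median was 0.26 and no member had an unadjusted p under 0.05.

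In brain the age differences ran the other way, with 44 of 45 below 0 and a median of -0.21. None was called, against 1.98% of all genes, and none had an unadjusted p under 0.05; DESeq2 called none and voom 5 (8.55% of all genes). The first by p were ndufb10 at -0.43 ± 0.21 (SE, adjusted p = 0.41), NDUFV3 (2 of 2) at -0.45, NDUFB3 at -0.58 and ndufaf6 at -0.25. NDUFB3 had 59.9 to 105 normalised CPM in the younger brains. The older had 68.5, 64.1, 29.5, 66.5, 33.8, 31.9 and 76.0, so not all of them were lower. ndufb10 had 86.7, 64.8, 73.9, 79.1, 82.9 and 74.6 normalised CPM in the 6 younger brains and 47.3, 66.5, 49.1, 57.8, 62.3, 61.1 and 60.3 in the 7 older. Only the second younger and the second older brain at 3 weeks crossed. Core subunits lay between -0.22 (ndufs7) and -0.03 (ndufv2). With brain rotenone replicates 3 and 4 at 3 weeks left out of the fit, ndufa1 and ndufb10 were called lower (3.72% of all genes). Neither library is in the age contrast, but both enter the spread that the fit shares between groups. The median was again -0.21.

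In liver 37 of 44 members were above 0 with a median of 0.15, close to the 0.12 of all genes. None was called, against 0.926% of all genes, none had an unadjusted p under 0.05, and DESeq2 and voom called none. ndufv2 at 0.38 ± 0.19 (SE, adjusted p = 0.295), ndufab1a at 0.44, ndufaf1 at 0.54 and ndufa13 at 0.42 came first. ndufaf1 had 10.99 and 33.1 normalised CPM in the 36-month livers at 3 weeks, and its fold change was 0.03 without the second and 0.83 without the first.

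Sampling time in controls, 8 against 3 weeks and averaged over both ages, gave no call. Time and any batch of sampling cannot be told apart in it. In brain 40 of 45 members were above 0 with a median of 0.08, against 0.122% of all genes called. Only ndufs8b had an unadjusted p under 0.05, and DESeq2 and voom called none. ndufaf2 had 0.20 ± 0.13 (SE), NDUFB2 0.24, ndufs1 0.11 and ndufv1 0.11, and core subunits lay between 0.04 (ndufv2) and 0.11. In skin 40 of 45 were above 0 with a median of 0.16, where 3.26% of all genes were called. No member had an unadjusted p under 0.05, and DESeq2 and voom called none. NDUFV3 (2 of 2) had 0.43 ± 0.22 (SE), ndufs7 0.29, ndufaf2 0.27 and ndufa12 0.30, and core subunits began at 0.06 (ndufv2).

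In liver 35 of 44 were above 0 with a median of 0.16, no member was called and 7.35% of all genes were. At an unadjusted p under 0.05, 4 were higher, against 11.9% of all genes, and 1 lower, against 12%. DESeq2 called 1 (12.4% of all genes) and voom 2 (9.73%). ndufaf4 had -0.90 ± 0.31 (SE, adjusted p = 0.0882), NDUFA3 0.51 ± 0.18 (adjusted p = 0.0887), NDUFC2 0.73 ± 0.29 (adjusted p = 0.141) and NDUFB1 0.32 ± 0.15. NDUFC2 had 26.4, 22.5, 23.98 and 17.6 normalised CPM in controls at 3 weeks and 29.2, 46.9, 46.7, 40.5, 46.7 and 15.2 at 8 weeks. Every 8-week liver was higher but the last, which is the library rich in intestine markers. Without that library the median was 0.30 and NDUFA3, NDUFC2 and ndufb4 were called higher (11.8% of all genes in either direction). Without 36-month control replicate 1 at 3 weeks the median was 0.10 and 2 members were called, against 12.01% of all genes. Core subunits lay between -0.01 (ndufv1) and 0.30 (ndufs7).

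Differences of response between tissues were tested over all 68 libraries. This fit had no term for fish, so tissues of the same fish were treated as independent. Its p-values do not account for that pairing. For rotenone at 8 weeks, brain minus liver, 1 member was called, ndufaf6, with a difference of 1.61 ± 0.38 (SE, adjusted p = 0.00547), against 5.54% of all genes. Within liver the call of ndufaf6 was lost when control replicate 1 was left out. For brain minus skin 44 of 45 differences were above 0 with a median of 0.69, but none was called, against 0.0702% of all genes. At an unadjusted p under 0.05, 26 were higher, against 5.2%, and voom called 21, against 3.9%. For liver minus skin the median was 0.31 and none was called, against 5.41%. At 3 weeks no member was called for brain minus liver (median 0.55, 0.0117% of all genes), brain minus skin (0.15, 0%) or liver minus skin (-0.38, 0.0039%). For age, brain minus skin had all 45 members below 0 with a median of -0.63 and 30 lower at an unadjusted p under 0.05, against 3.79% of all genes. None was called, against 0.226%, and voom called 6, against 3.25%. For age, brain minus liver had a median of -0.28 against 1.67% of all genes called, and liver minus skin -0.32 against 1.77%, both with no member called.

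Other genes of the enzyme were read from separate lists. The 7 subunits encoded by the mitochondrial genome did not follow the nuclear ones throughout. In brain after 8 weeks of rotenone all 7 were below 0 with a median of -0.43 and none called, where the nuclear members were centred on 0. In brain with age all 7 were above 0, median 0.23, and the nuclear median was -0.21. In liver controls at 8 against 3 weeks, where 7.35% of all genes were called, they had a median of 0.87 and mt-nd4l rose by 0.97 ± 0.27 (SE, adjusted p = 0.0379). In skin after 8 weeks of rotenone they had a median of -0.42, and mt-nd3 fell by 0.69 ± 0.20 (SE, adjusted p = 0.0499), in the direction of the nuclear members. Of all genes, 2.33% were called lower there.

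Of 12 further assembly factors outside the ndufaf names, in liver after 8 weeks of rotenone FOXRED1 fell by 1.48 ± 0.29 (SE, adjusted p = 0.00768), as ndufaf6 did. There 5.19% of all genes were called lower. TMEM186, which in human cells belongs to the machinery assembling the membrane arm, was called in 2 contrasts. It had -1.11 ± 0.31 (SE, adjusted p = 0.038) in skin after 8 weeks of rotenone, where 2.33% of all genes were called lower. In liver controls at 8 against 3 weeks it had -1.83 ± 0.47 (adjusted p = 0.0298), where 7.35% of all genes were called. No other gene of that list was called in the rotenone, age or control-time contrasts. The 47 nuclear subunits of complexes II to V tested in skin had a median of -0.60 after 8 weeks of rotenone. Of these, 1 was called lower, against 2.33% of all genes. It was cox6c of complex IV, at -0.85 ± 0.24 (SE, adjusted p = 0.0424). In brain after 3 weeks of rotenone the subunits of complexes II to V had a median of 0.61, beside the 0.63 of complex I.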

How the data were processed

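RNA was extracted with QIAzol and made into TruSeq libraries, per the labels' protocols. Per the submitters' processing notes, CASAVA 1.8.2 was used. Raw read counts per gene and RPKM were deposited by the authors per library. Aligner, counter, build and strand setting: not given in the sources used here. Counts were tested with the quasi-likelihood F test of edgeR 4.0.16 (R 4.3.3), with TMM factors and filterByExpr (minimum count 10, total 15), within each tissue over its 6 groups, and over all 68 libraries for tissue contrasts. The fit over all 68 libraries had no term for fish. Calls used Benjamini-Hochberg adjusted p under 0.05 over all genes tested. Fits were tested on simulated data. RPKM served for levels only.

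Members and lists were chosen with earlier results of these data known. Named genes were those called, up to 10 per direction, or the 4 with the smallest p, plus core subunits, extreme levels, extreme tissue differences and copies. Alternatives used DESeq2 1.42.0, limma 3.58.1 (voom with quality weights), RLE factors, no filter, groups fitted alone, replicate block, length trend removed (spline with 4 df), 5 libraries removed, and single libraries left out. Fish numbers link the tissues of a fish, which served for the ratios of copies. Of the 45 members, 40 had a match by identifier in the name table. NDUFC2, NDUFAF3, ndufa13, ndufv3 and ndufs8b had none and are named by their deposited symbols. Values of 1 member are not reported here, though counts and medians include it.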

Additional observations from a re-analysis of the deposited data

Results flagged for a closer look

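In skin after 8 weeks of rotenone, replicate 6 lay far from the other 5 fish of its group: its median deviation over the members was 0.28, against -0.44 to -0.28. Such a gap was looked for 16 times in groups of 4 to 6 libraries, and chance flags about 1 in 20. Without this fish 23 members were called lower instead of 4, while the share of all genes called was 6.00% without it and 5.29% with it, in either direction. The fish was picked by its high member values, so leaving it out lowers its group for the same genes by construction. The counts of 23 and 4 are thus no test of the members. The response of ndufaf6 to 8 weeks of rotenone differed between brain and liver, by 1.61 on the log2 scale (adjusted p = 0.00547 by edgeR, without a term for fish). Fold changes were -1.72 in liver and close to 0 in brain. Without liver control replicate 1 the liver fold change was -1.19 and was not called.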

How the results depend on the processing

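Counts of members called moved as follows, with the share of all genes called in either direction in parentheses. A count without such a share is not set against all genes. With DESeq2 there were 14 in brain (18.5%), 4 in liver (14.7%) and 22 in skin (18.2%) between sampling times of rotenone fish, 3 in liver (10.5%) and 16 in skin (10.4%) after 8 weeks of rotenone, 1 in skin after 3 weeks (0.423%), 1 in skin for 8 minus 3 weeks (0.829%) and 1 in liver between times in controls (12.4%). Voom gave 5 in brain for age (8.55%), 2 in brain (8.97%), 7 in liver (15.9%) and 31 in skin (17.97%) between times of rotenone fish, 30 in liver (17.6%) and 34 in skin (20%) after 8 weeks, and 2 in liver between control times (9.73%). Between tissues voom gave 6 for age in brain minus skin (3.25%) and, at 8 weeks of rotenone, 5 for brain minus liver (8.31%), 21 for brain minus skin (3.9%) and 1 for liver minus skin (4.83%). Voom also gave medians of 0.30 for brain at 3 weeks and -0.17 between times of rotenone fish. Fitted alone, the groups gave 4 in brain for age (4.07%), 0 in brain (0.307%) and 2 in liver (13.5%) between times of rotenone fish, and 0 in liver (3.09%) and 25 in skin (9.34%) after 8 weeks. In skin after 8 weeks no filter gave 2 (2.96%) and the length trend removed 2 (4.84%). Without the 5 libraries there were 2 in brain for age (3.72%), 0 in brain (2.10%) and 5 in liver (13.2%) between times of rotenone fish, 10 in liver after 8 weeks (4.71%), 3 in liver between control times (11.8%) and 2 for brain minus liver at 8 weeks. Medians then were 0.14 in brain at 3 weeks, -0.12 for 8 minus 3 weeks, 0.0068 between times of rotenone fish, and 0.023 and -0.49 for brain minus liver and brain minus skin at 3 weeks. With a replicate block there were 2 in brain (5.85%) and 0 in liver (0.703%) between times of rotenone fish, 0 in liver after 8 weeks (0.104%), where ndufaf6 had -1.30, and 6 in skin after 8 weeks (2.95%). Replicate numbers did not pair the samples: 4 of 36 same-numbered pairs had a correlation of deviations over 0.1 (range -0.52 to 0.45). Leaving out single libraries gave 0 to 23 calls in skin and 0 to 10 in liver after 8 weeks, 1 to 40, 0 to 6 and 3 to 29 in brain, liver and skin between times of rotenone fish, 0 to 3 in liver between control times and 0 to 4 in skin for age. The medians then ran from 0.20 to 0.60 in skin and -0.10 to 0.25 in liver at 3 weeks of rotenone, and from 0.03 to 0.25 in liver for age. ndufaf4 in liver at 3 weeks reversed, with a range of -1.22 to 0.45, and ndufv1 in liver at 8 weeks reached 0.0020 with the block and -0.20 to 0.016 with single libraries left out. The cause was not tested. The other 739 values of counts and medians under an alternative moved less. Groups of 2 to 6 fish and the low counts of assembly factors in liver limit what can be resolved.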
